A study of Mus musculus with 4 samples.

Results

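Cyclic AMP is the main stimulus of the renin gene and of renin release, and 44 genes that carry this signal were examined among the 32647 gene symbols of the deposited table. They were chosen by symbol, from the receptors at the cell surface to the coactivators in the nucleus, and all 44 were found. The RNA came from recruited renin cells, that is cells of the kidney cortex which produced renin after a threat to blood pressure. Adult C57BL/6 mice carried the Ren1c-YFP transgene, whose yellow fluorescent protein is made under the control of the renin promoter. They received a diet low in salt, and drank water with 0.5 g/L of captopril, which blocks the formation of angiotensin II, for 1 week. Yellow fluorescent cells were sorted after enzymatic digestion of the cortex, and their RNA was amplified to cDNA and sequenced. The series holds this single condition as 4 libraries, made from 2 biological replicates with 2 technical replicates each, and the labels do not say whether a biological replicate is a single mouse. Libraries 1a and 1b are the technical replicates of replicate 1, and libraries 2a and 2b those of replicate 2. Untreated cells are not analysed here, so nothing below is a response to the treatment.

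In the renin cell, the β-adrenergic, parathyroid hormone and calcitonin-like receptors couple to the stimulatory G protein Gs, which activates adenylyl cyclase. Cyclic AMP releases the catalytic subunits of protein kinase A (PKA) from its regulatory subunits, and phosphodiesterases break the messenger down. PKA phosphorylates transcription factors of the CREB family, which recruit CRTC proteins and the acetyltransferases CBP and p300 to the cyclic AMP response element of the renin gene. Inhibitory receptors such as the adenosine receptor encoded by Adora1 act through Gi to lower cyclic AMP.

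Values are in TPM, a measure of transcript abundance that is scaled by transcript length and adds up to the same total in every library. A level is the mean of the 2 biological replicates, each the mean of its technical replicates, and is given with the SD over these replicates (n = 2). With 1 condition there was no test between groups, and with 2 replicates the order of genes within a step is given as a description, by the number of libraries that show it. The libraries held 19871382 to 47471036 estimated counts, and the number of symbols at 1 TPM or more ranged from 6405 to 8709. Renin itself, Ren1, was at 29637 and 28674 TPM in libraries 1a and 1b and at 21904 and 15933 TPM in libraries 2a and 2b, and Akr1b7, an enzyme made by renin cells, was at 1806 and 1800 TPM in libraries 1a and 1b and at 1100 and 1189 TPM in libraries 2a and 2b. Genes of the tubule were present too. The summed level of 8 proximal tubule genes was 970 and 810 TPM in the libraries of replicate 1 and 1739 and 13047 TPM in those of replicate 2. Kap carried most of the sums of replicate 2, and without it they were 914 and 790 TPM in replicate 1 and 503 and 1907 TPM in replicate 2. The summed level of 8 genes of later tubule segments and the collecting duct was 70.5 and 273 TPM in replicate 1 and 1296 and 1195 TPM in replicate 2. All 6 smooth muscle genes examined reached 1 TPM in all 4 libraries, as did 1 of 6 podocyte genes, Synpo, and 1 of 8 leukocyte genes, Cd74. Of the 44 members, 19 had the same order of libraries as at least 1 of these 16 tubule genes, and 9 of those reached 1 TPM in all 4 libraries. The share of all symbols with such an order was not computed, so this count is no measure of tubule RNA in the members. With 4 libraries, unrelated genes can also share an order. In these bulk pools, fewer cells of a type and less RNA per cell cannot be told apart.

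The letters of the cyclic AMP response element, TGACGTCA, were searched on both strands in the 250 bases before each start in the RefSeq promoter table of GRCm38.p6, which held 67 starts of 35 of the members. The full element stood before 1 start, of Prkar1a, and its first 6 letters, TGACGT, which the full element contains, before 4 starts, of Prkar1a, Adcy9, Pde4a and Pde4b. Those are 1.49% and 5.97% of the members' starts, near the shares of 1.55% and 6.47% over all 32851 starts of the table. The 4 windows shown are all the matches found among the members' starts, and were not chosen by function. The renin window is shown for its TATA box, TATAAA, which was searched on the strand of the gene alone and stood before 7.59% of all starts and before no start of a member. Each is read 5′ to 3′ on the strand of the gene, and capitals mark the matched letters, which for Pde4a and Pde4b are the reverse complement.
Prkar1a, chr11:109650889-109650918, plus strand: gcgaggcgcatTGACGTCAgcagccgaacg
Adcy9, chr16:4420504-4420533, minus strand: ggacccggcggTGACGTgcgcgggccgcgc
Pde4a, chr9:21184039-21184068, plus strand: ggcacagctcgACGTCAggctggggaggag
Pde4b, chr4:102421509-102421538, plus strand: gatttggctgcACGTCAattttctcatctg
Ren1, chr1:133350634-133350663, plus strand: tacatggtgtgTATAAAagaaggctcaggg
The first capital lies 49 bases before the start for Prkar1a, 24 for Adcy9, 51 for Pde4a, 35 for Pde4b and 29 for Ren1. GENCODE places the first exon of Ren1 further upstream than RefSeq, so that the Ren1 window lies within it. A match in letters is not a bound site, and no binding was measured here.

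Every step of the pathway from receptor to coactivator had a member at 1 TPM or more in every library. This rule was met by 16 of the 44 members, or 36.4%, against 9.74% of all symbols and 16.5% of symbols above 0 TPM in any library. These 16 were Pth1r, Ramp1, Gnas, Gnai2, Gnai3, Adcy3, Adcy7, Prkaca, Prkacb, Prkar1a, Prkar2a, Pde1a, Crem, Crtc2, Crebbp and Akap13. A further 9 members reached 1 TPM in 3 libraries, 7 in 2 libraries and 6 in 1 library, and 6 in none. The 6 below 1 TPM throughout were Adcy1, Adcy2, Adcy8, Prkar1b, Pde3b and Crtc1. The median level of the members was 6.20 TPM, against 1.33 TPM over the 19229 symbols above 0 TPM in any library. It was 9.30 TPM in replicate 1 and 2.61 TPM in replicate 2, where the median of those symbols was 0.918 and 0.437 TPM. By library, 34 and 28 members were at 1 TPM or more in replicate 1 and 27 and 22 in replicate 2.

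**Figure D1:**
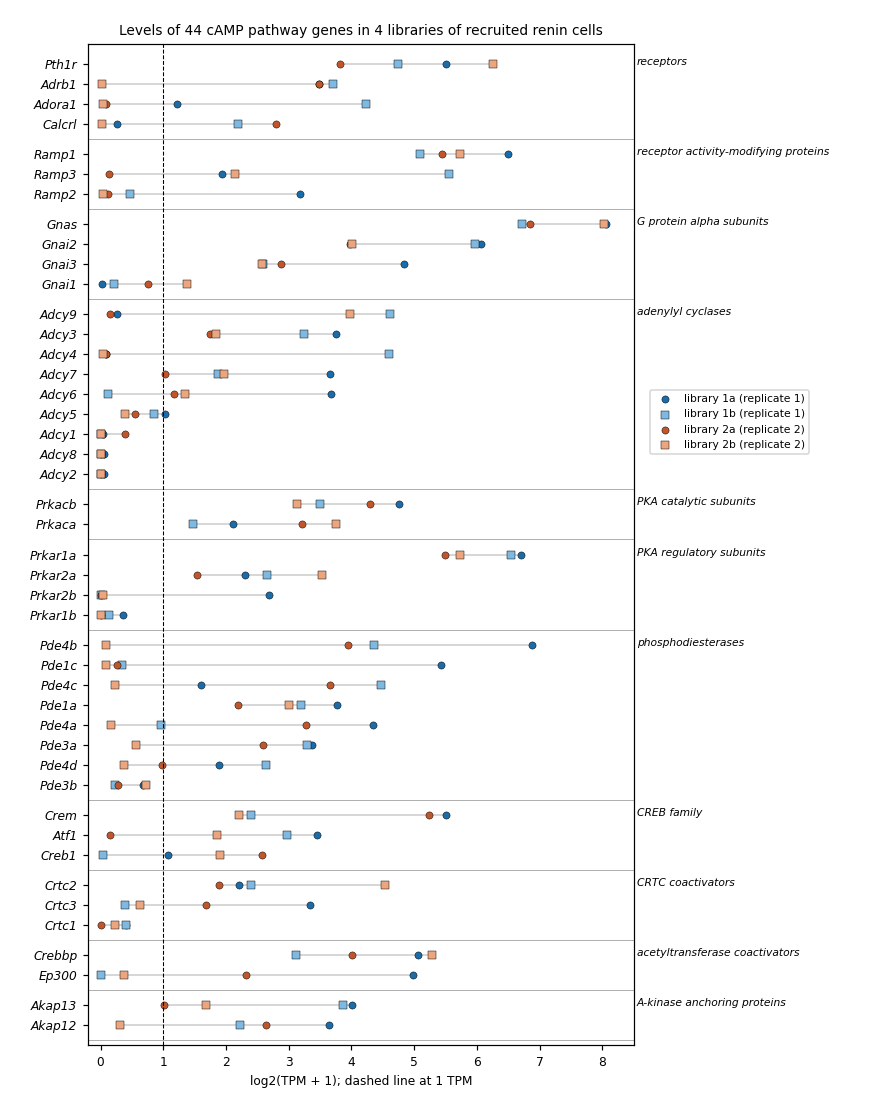
Levels of the 44 members, grouped by step and sorted by level within a step, as log2(TPM + 1) on the horizontal axis. Each point is a library (blue for replicate 1, orange for replicate 2, circles for technical replicate 1, squares for technical replicate 2), grey lines span the 4 libraries and the dashed line stands at 1 TPM. Gnas, Prkar1a, Ramp1 and Pth1r lie right of the line in every library, whereas Adcy4, Pde1c and Adcy9 span nearly from 0 to over 20 TPM.

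Among the receptors, Pth1r was the most abundant in all 4 libraries. It encodes the receptor of parathyroid hormone and its related peptide, lies on chromosome 9 of GRCm38 from 110722085 to 110747145, and was at 44.5 and 25.8 TPM in libraries 1a and 1b and at 13.1 and 75.9 TPM in libraries 2a and 2b. Its level of 39.8 ± 6.60 TPM (SD, n = 2) made up 66.9 ± 7.78% of the summed TPM of the 4 receptors. Without library 2b the level was 24.1 TPM. In estimated counts, which are not divided by length, Pth1r was highest in 2 libraries, Adora1 in library 1b and Calcrl in library 2a. Both replicates overlapped, and the widest gap between technical replicates was in replicate 2.

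Pth1r is also known as a gene of the proximal tubule, and its libraries ran in the same order as those of Miox and Lrp2, which were among the 8 proximal tubule genes examined. Library 2b was highest and library 2a lowest for Pth1r, and the same held for Miox, an enzyme that breaks down inositol, with 484 and 457 TPM in replicate 1 and 364 and 1128 TPM in replicate 2. Lrp2, which encodes the endocytic receptor megalin, was at 17.7 and 5.19 TPM in replicate 1 and at 2.02 and 20.9 TPM in replicate 2. Of the 8 genes, 6 were at 1 TPM or more in all 4 libraries. Ren1 did not follow this order, with its lowest value in library 2b. The part of tubule RNA in the level of Pth1r was not tested.

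**Figure D2:**
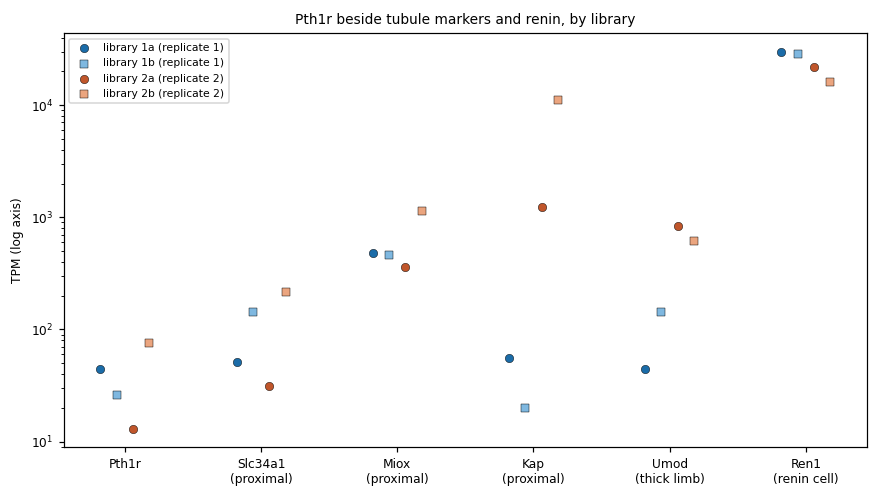
Pth1r beside 3 genes of the proximal tubule, Umod of the thick limb and Ren1, in TPM on a log axis. Each point is a library, coloured by biological replicate. Library 2b is highest for Pth1r, Slc34a1, Miox and Kap and lowest for Ren1.

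Adrb1, the β1-adrenergic receptor through which renal nerves stimulate renin cells, was second. It was at 10.2 and 12.1 TPM in replicate 1 and at 10.2 and 0.0131 TPM in replicate 2. Thus 3 libraries lay close together and library 2b had almost none. Library 2b held the most estimated counts and the fewest symbols at 1 TPM or more, and the cause of the low value was not tested. The level of Adrb1 was 8.13 ± 4.31 TPM (SD, n = 2). Calcrl, the calcitonin receptor-like receptor, was at 0.201 and 3.56 TPM in replicate 1 and at 5.92 and 0.0184 TPM in replicate 2. Adora1, the inhibitory adenosine receptor, was at 1.32 and 17.7 TPM in replicate 1 and at 0.0582 and 0.0237 TPM in replicate 2, so that library 1b held 92.7% of its summed TPM.

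Calcrl binds its ligands only together with a receptor activity-modifying protein (RAMP): with RAMP1 it forms the receptor of calcitonin gene-related peptide, and with RAMP2 or RAMP3 those of adrenomedullin. Ramp1 was the leading RAMP, at 89.3 and 33.3 TPM in replicate 1 and 42.6 and 52.3 TPM in replicate 2, and was above Calcrl in every library. Its level was 54.4 ± 9.77 TPM (SD, n = 2) and its share of the RAMPs 81.1 ± 22.1%. Library 1b differed from the others: there Ramp3 was at 45.9 TPM and above Ramp1, while it was at 2.84 TPM in library 1a and at 0.0937 and 3.41 TPM in replicate 2. The level of Ramp3 was 13.1 TPM, and became 2.29 TPM without library 1b and 23.8 TPM without library 1a. Ramp2 was at 8.07 TPM in library 1a and below 0.4 TPM in the other libraries.

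Endothelial cells are known to carry Calcrl with Ramp2, so endothelial markers were set beside these genes. Cdh5 and Kdr, which define endothelium, were below 0.1 TPM in all 4 libraries. Of 8 endothelial markers, only Pecam1 and Emcn reached 1 TPM in all 4 libraries, and the summed level of all 8 was 38.7 and 48.7 TPM in replicate 1 and 50.8 and 137 TPM in replicate 2. Most of the sum of library 2b came from Egfl7, at 126 TPM, and without Egfl7 the sums were 24.4 and 48.6 TPM in replicate 1 and 50.7 and 10.9 TPM in replicate 2. Emcn was high in the same libraries as Calcrl, with 2.26 and 39.2 TPM in replicate 1 and 41.3 and 5.02 TPM in replicate 2. Flt1 and Tie1 were highest in library 1b, at 3.46 and 1.55 TPM, where Adcy4 was at 23.2 TPM. Other endothelial markers ran differently. Pecam1 and Tek were highest in library 1a, at 15.4 and 4.83 TPM, where Calcrl was at 0.201 TPM and Adcy4 at 0.0680 TPM. The endothelial markers thus shared no common order of libraries. The part of endothelial RNA in Calcrl, Ramp2, Ramp3 and Adcy4 was not tested.

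Gnas, which encodes the α subunit of Gs, had the highest TPM of the 44 members in all 4 libraries. In estimated counts it was highest in library 2b alone, with Pde4b highest in library 1a and Prkar1a in libraries 1b and 2a. The gene lies on chromosome 2 from 174284320 to 174346744, and 97.2% of the symbols above 0 TPM in any library had a level at or below its own. It was at 267 and 105 TPM in replicate 1 and at 115 and 261 TPM in replicate 2, for a level of 187 ± 1.31 TPM (SD, n = 2). The SD is small because each replicate had 1 high and 1 low library. The locus makes several transcripts from separate promoters as well as antisense transcripts, which a value per symbol does not separate.

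Of the subunits of Gi, which inhibits adenylyl cyclase, Gnai2 led in every library in TPM, whereas in estimated counts Gnai3 was highest in 3 of 4 libraries. Gnai2 was at 65.9 and 62.0 TPM in replicate 1 and at 14.7 and 15.0 TPM in replicate 2, so the replicates did not overlap, and each pair of technical replicates lay close together. Its level was 39.4 ± 34.7 TPM (SD, n = 2), or 75.0 ± 9.01% of the summed TPM of Gnai1, Gnai2 and Gnai3. Gnai3 was at 27.6 and 5.05 TPM in replicate 1 and at 6.37 and 4.96 TPM in replicate 2. Its level of 10.99 TPM became 5.36 TPM without library 1a and 16.6 TPM without library 1b. Gnai1 ran the other way from Gnai2, with 0.0161 and 0.165 TPM in replicate 1 and 0.693 and 1.59 TPM in replicate 2. Atp6v1b1, of the collecting duct, had the same order of libraries, with 0 and 0.0143 TPM in replicate 1 and 3.45 and 8.39 TPM in replicate 2. The share of Gnas among the α subunits was 74.0% and 60.9% in replicate 1 and 84.0% and 92.3% in replicate 2.

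No adenylyl cyclase led in every library. Adcy9, a cyclase of wide distribution, had the highest level at 9.66 ± 3.19 TPM (SD, n = 2). It was at 0.201 and 23.6 TPM in replicate 1 and at 0.116 and 14.7 TPM in replicate 2, and so was present in 1 technical replicate of each pool and nearly absent from the other. Adcy3 and Adcy7 were the cyclases found in every library. Adcy3 was at 12.5 and 8.46 TPM in replicate 1 and at 2.37 and 2.59 TPM in replicate 2, without overlap, for a level of 6.47 ± 5.64 TPM (SD, n = 2). Adcy7 was at 11.6 and 2.68 TPM in replicate 1 and at 1.03 and 2.93 TPM in replicate 2. The level of Adcy9 was 3.80 TPM without library 1b, 6.01 TPM without library 2b and 15.5 TPM without library 1a. Adcy3 had the highest level when library 1b or library 2b was left out.

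The cyclases inhibited by calcium, Adcy5 and Adcy6, are the ones linked to the fall of renin release when calcium rises in renin cells. Together they held 34.3% and 1.51% of the summed TPM of the cyclases in replicate 1 and 30.4% and 8.34% in replicate 2. In estimated counts, which are not divided by length, Adcy6 was the highest cyclase in libraries 1a and 2a. There it was at 1389 and 250, against 679 and 218 for Adcy3. Adcy6 was at 11.7 and 0.0908 TPM in replicate 1 and at 1.25 and 1.53 TPM in replicate 2, and its level of 3.64 TPM became 0.740 TPM without library 1a and 6.55 TPM without library 1b. Adcy5 was low but even, with 1.04 and 0.800 TPM in replicate 1 and 0.462 and 0.309 TPM in replicate 2. Adcy4 was at 23.2 TPM in library 1b and below 0.1 TPM in the other 3 libraries. The calcium-stimulated cyclases Adcy1 and Adcy8 and the cyclase Adcy2 did not exceed 0.316 TPM in any library.

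The transcripts of the PKA regulatory subunits were dominated by a single gene. Prkar1a, which encodes RIα, lies on chromosome 11 from 109649405 to 109669656 and held 83.2% to 95.9% of the summed TPM of the 4 regulatory subunits over the libraries. It was at 104 and 92.7 TPM in replicate 1 and at 44.03 and 52.4 TPM in replicate 2, without overlap, for a level of 73.2 ± 35.3 TPM (SD, n = 2). Prkar2a, which encodes RIIα, was at 3.96 and 5.26 TPM in replicate 1 and at 1.90 and 10.53 TPM in replicate 2. Slc34a1, the phosphate transporter of the proximal tubule, had the same order of libraries as Prkar2a, with 51.0 and 142 TPM in replicate 1 and 31.0 and 216 TPM in replicate 2. Prkar1b stayed below 0.3 TPM. Prkar2b, the RIIβ subunit, was at 5.45 TPM in library 1a, at 0 TPM in libraries 1b and 2a and at 0.0247 TPM in library 2b.

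Of the catalytic subunits, Prkacb was above Prkaca in 3 of 4 libraries in TPM, and in all 4 in estimated counts. Prkacb was at 26.03 and 10.3 TPM in replicate 1 and at 18.6 and 7.79 TPM in replicate 2, with a level of 15.7 ± 3.50 TPM (SD, n = 2). Prkaca was at 3.32 and 1.78 TPM in replicate 1 and at 8.25 and 12.5 TPM in replicate 2, and was, among the members that reached 1 TPM in all 4 libraries, the only one whose replicate 2 lay above replicate 1 without overlap. Kap and Slc5a2 of the proximal tubule had the same order of libraries as Prkaca. Kap was at 55.5 and 19.8 TPM in replicate 1 and at 1236 and 11140 TPM in replicate 2. Slc5a2, the glucose transporter of that segment, was at 0.279 and 0 TPM in replicate 1 and at 9.36 and 40.6 TPM in replicate 2. The part of tubule RNA in the level of Prkaca was not tested. Prkacb made up 88.7% and 85.3% of the pair in replicate 1 and 69.3% and 38.3% in replicate 2. Catalytic subunits together made up 23.2 ± 10.53% (SD, n = 2) of the summed TPM of the 6 PKA genes.

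**Figure D3:**
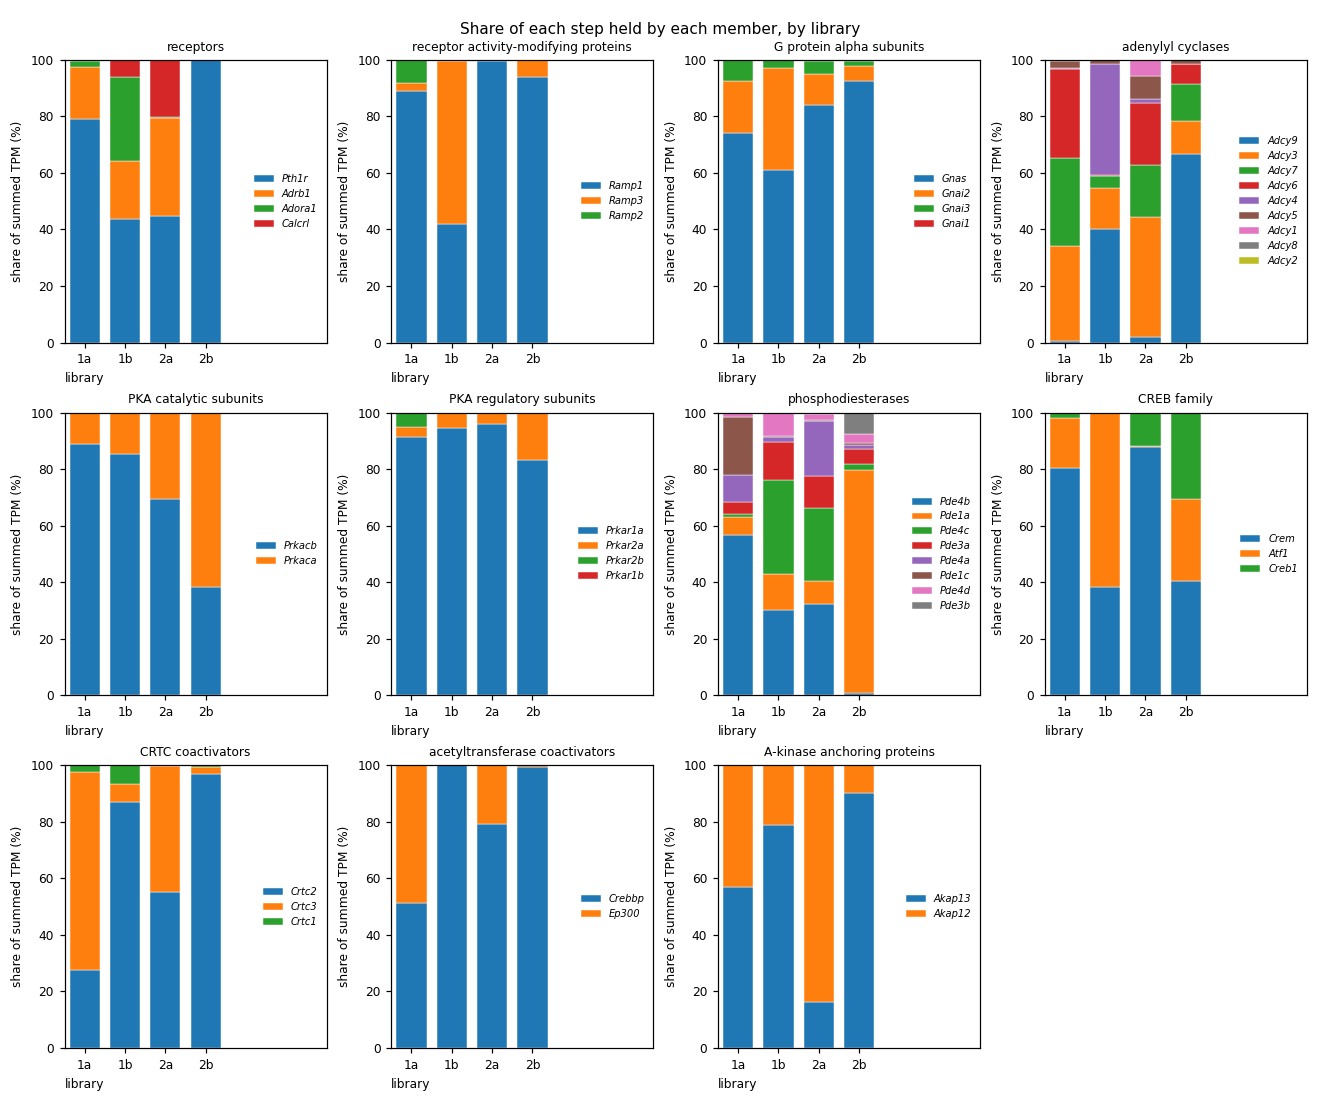
Share of the summed TPM of each step held by each of its members, in percent, for libraries 1a and 1b of replicate 1 and 2a and 2b of replicate 2. Each bar is a library and adds up to 100%. Prkar1a, Gnas, Pth1r and Crebbp hold the largest part of their step in all 4 libraries, and the leading cyclase and phosphodiesterase differ between libraries.

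The leading phosphodiesterase differed between libraries. Pde4b, of the family specific for cyclic AMP, had the highest level at 37.7 ± 43.1 TPM (SD, n = 2). It was at 117 and 19.5 TPM in replicate 1 and at 14.4 and 0.0580 TPM in replicate 2, and its level was 13.4 TPM without library 1a and 62.1 TPM without library 1b. Without library 1a Pde4c had the highest level. Pde4c was at 2.04 and 21.2 TPM in replicate 1 and at 11.6 and 0.171 TPM in replicate 2. In TPM it was the leading phosphodiesterase of library 1b. Pde4a was at 19.4 and 0.959 TPM in replicate 1 and at 8.64 and 0.125 TPM in replicate 2. Pde4d was between 0.299 and 5.21 TPM, and all 4 genes of this family were lowest in library 2b. The family held 68.6% and 72.9% of the summed TPM of the 8 phosphodiesterases in replicate 1 and 79.8% and 7.36% in replicate 2. In estimated counts, which are not divided by length, Pde3a was the highest phosphodiesterase in libraries 1b and 2a. It was at 6922 and 3866 there, against 3349 and 2427 for Pde4b.

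Pde1a, which is activated by calcium and calmodulin, was the only phosphodiesterase to reach 1 TPM in all 4 libraries. It was at 12.6 and 8.16 TPM in replicate 1 and at 3.57 and 7.02 TPM in replicate 2, without overlap, for a level of 7.85 ± 3.61 TPM (SD, n = 2). It led in library 2b. Pde1c of the same family was at 42.2 and 0.272 TPM in replicate 1 and at 0.193 and 0.0569 TPM in replicate 2, so its level of 10.7 TPM became 0.198 TPM without library 1a and 21.1 TPM without library 1b. Pde3a, which cyclic GMP inhibits, was at 9.36 and 8.82 TPM in replicate 1 and at 5.04 and 0.480 TPM in replicate 2, and Pde3b did not exceed 0.661 TPM. In each library Pde3a was above Pde3b save library 2b, where they were at 0.480 and 0.661 TPM.

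In the CREB family the leading gene was Crem, and not Creb1. Crem makes activators as well as an inducible repressor from an inner promoter, and the value per symbol does not separate them. It was at 44.6 and 4.26 TPM in replicate 1 and at 36.7 and 3.62 TPM in replicate 2, so that technical replicate 1 lay far above technical replicate 2 in both pools. Its level was 22.3 ± 3.01 TPM (SD, n = 2), and it led in 3 libraries. The level was 12.2 TPM without library 1a and 14.02 TPM without library 2a. Atf1 led in library 1b, and was at 9.91 and 6.86 TPM in replicate 1 and at 0.108 and 2.61 TPM in replicate 2. Creb1 was at 1.10 and 0.0275 TPM in replicate 1 and at 4.98 and 2.76 TPM in replicate 2. Crem was above Creb1 in every library in TPM, but in library 2b the estimated counts were 434 for Crem and 1570 for Creb1. Calb1 and Scnn1g, of the distal tubule and collecting duct, had the same order of libraries as Creb1. Calb1 was at 2.86 and 1.86 TPM in replicate 1 and at 133 and 116 TPM in replicate 2. The part of tubule RNA in the level of Creb1 was not tested.

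Of the CRTC coactivators, which enter the nucleus when cyclic AMP rises, Crtc2 was at 3.63 and 4.27 TPM in replicate 1 and at 2.71 and 22.1 TPM in replicate 2. In TPM it led in 3 libraries, with a level of 8.17 ± 5.97 TPM (SD, n = 2). Its level was 3.33 TPM without library 2b and 13.02 TPM without library 2a. Its order of libraries was that of Slc34a1, and the part of tubule RNA in it was not tested. Crtc3 led in library 1a, with 9.18 and 0.308 TPM in replicate 1 and 2.20 and 0.555 TPM in replicate 2. Without library 2b its level of 3.47 TPM was above that of Crtc2. In estimated counts Crtc3 was highest in libraries 1a and 2a, at 1151 and 466, against 129 and 162 for Crtc2. Crtc1 did not exceed 0.328 TPM.

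Crebbp, which encodes CBP, was above Ep300, which encodes p300, in all 4 libraries in TPM. In library 1a, where the effective length of Crebbp was 883 bases, the estimated counts were 3308 for Crebbp and 4499 for Ep300. Crebbp was at 32.2 and 7.66 TPM in replicate 1 and at 15.1 and 38.002 TPM in replicate 2, for a level of 23.3 ± 4.69 TPM (SD, n = 2). Ep300 was at 30.6 and 0.00236 TPM in replicate 1 and at 3.98 and 0.301 TPM in replicate 2. In library 1a the pair was nearly equal, with 51.3% for Crebbp. The level of Ep300 was 8.71 TPM and became 1.07 TPM without library 1a and 16.4 TPM without library 1b.

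Among the anchoring proteins, which tether PKA at places in the cell, Akap13 led in 3 libraries and Akap12 in library 2a. Akap13, a large scaffold protein, was at 15.2 and 13.6 TPM in replicate 1 and at 1.007 and 2.19 TPM in replicate 2, without overlap. Akap12, a scaffold at the plasma membrane, was at 11.5 and 3.66 TPM in replicate 1 and at 5.25 and 0.241 TPM in replicate 2. The level was 7.98 ± 9.03 TPM for Akap13 and 5.17 ± 3.43 TPM for Akap12 (SD, n = 2), and that of Akap12 was 3.21 TPM without library 1a.

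The spread of the members between technical replicates was set beside that of other symbols. Of 25 members at 10 TPM or more in a library of replicate 1, 5 lay under 0.5 TPM in the other, or 20.0%, against 21.0% over all such symbols. These were Adcy4, Adcy6, Adcy9, Pde1c and Ep300. In replicate 2 they were 4 of 15 (26.7%), against 30.3%, namely Adcy9, Adrb1, Pde4b and Pde4c. Of the 38 members that reached 1 TPM in any library, 5 had 90% or more of their summed TPM in a single library (13.2%, against 23.3% of all such symbols).

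Between the replicates, 17 of the 44 members were higher in both libraries of replicate 1 than in both of replicate 2, or 38.6%, against 24.2% of symbols above 0 TPM. The reverse held for 3 members, Creb1, Gnai1 and Prkaca, or 6.82%, against 9.21%. Among members that reached 1 TPM in all 4 libraries the counts were 5 of 16 (31.3%, against 25.0%) and 1 of 16 (6.25%, against 17.9%). The 5 were Gnai2, Adcy3, Prkar1a, Pde1a and Akap13. Means of the replicates were 4.09-fold apart for Gnai2, 3.29-fold for Adcy3, 2.01-fold for Prkar1a, 1.81-fold for Pde1a and 5.91-fold for Akap13 on TPM + 1. For Adrb1, which belongs to the 17, the margin was below 0.1 TPM. Symbols at 1 TPM or more numbered 8709 and 7198 in replicate 1 and 7070 and 6405 in replicate 2, and 8 of the 16 tubule genes were higher in replicate 2 without overlap, against 2 in replicate 1. Slc22a6, 1 of these 2, a transporter of the proximal tubule, had the same order of libraries as all 5 members named here. It was at 29.1 and 14.3 TPM in replicate 1 and at 1.85 and 11.2 TPM in replicate 2. The 5 members and Slc22a6 were all picked as higher in replicate 1 without overlap. That leaves few orders open, so their match is partly built in. The part of tubule RNA and of the number of symbols measured in these differences was not tested.

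The deposited effective length of a gene is the length of its transcripts averaged by their abundance in a library, so it moves when other transcripts of the gene are measured. Of the 16 members at 1 TPM or more in every library, 5 had effective lengths at least 2-fold apart (31.3%, against 23.0% of 3179 such symbols). The length of Crebbp was 883 and 6967 bases in replicate 1 and 3736 and 1033 bases in replicate 2, and its 2 highest TPM values stood beside its 2 shortest lengths. That of Akap13 was 3256 and 805 bases in replicate 1 and 7409 and 1084 bases in replicate 2. That of Prkar2a was 406 bases in library 1b and 3471 to 4066 bases elsewhere. The others were Pde1a, from 1468 to 4765 bases, and Prkar1a, from 1763 to 3531 bases. Pth1r, Gnas and Prkaca had lengths less than 1.36-fold apart, where 1.36-fold was the median of all 3179 symbols. Which transcript of Crebbp or Akap13 the cells made cannot be read from the table.

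**Figure D4:**
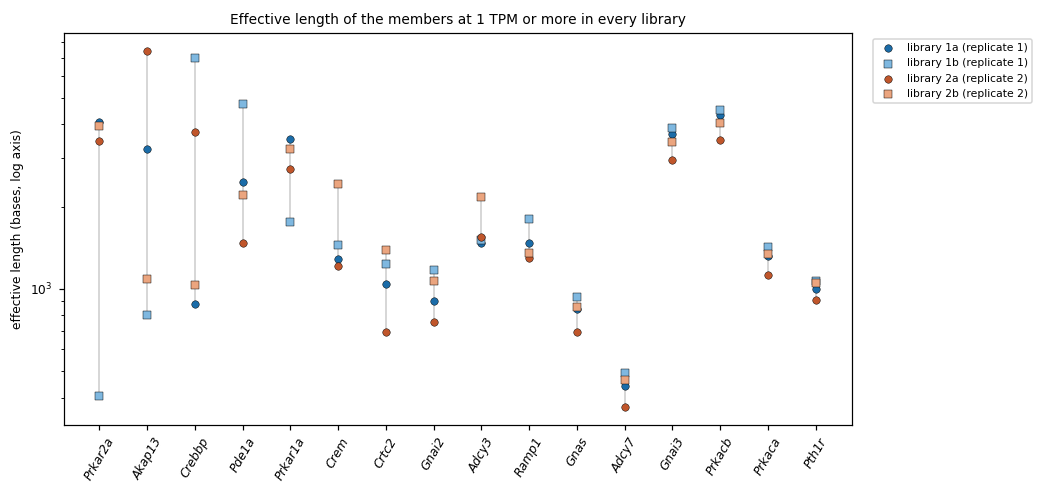
Effective length in bases, on a log axis, of the 16 members at 1 TPM or more in every library, sorted by the ratio of their longest to shortest value. Each point is a library, coloured by biological replicate. Prkar2a, Akap13 and Crebbp span 7-fold or more, and Pth1r and Prkaca lie close together.

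Other genes of the pathway were taken from 9 lists of 133 genes, of which 132 were found. In all 4 libraries 28 of the 132 reached 1 TPM (21.2%), against 9.74% of all symbols. None of 25 other receptors known to couple to Gs was among them, and 7 were at 0 TPM throughout. The highest of the 25 was Gcgr, the glucagon receptor, at 36.8 and 18.9 TPM in replicate 1 and at 20.0 and 0.659 TPM in replicate 2. Vipr2, a receptor of vasoactive intestinal peptide, was at 38.7 TPM in library 1a and below 0.04 TPM elsewhere. Avpr2, the vasopressin receptor of the collecting duct, was at 14.6 TPM in library 2b and below 0.2 TPM elsewhere. Aqp2, the water channel of the same cells, was at 268 TPM in that library, against 52.9 TPM or less in the others. Of 12 other receptors known to couple to Gi, Adra2b alone reached 1 TPM in all 4 libraries, with 9.70 and 1.34 TPM in replicate 1 and 9.41 and 48.6 TPM in replicate 2. Ptger3 was at 0.277 and 0.0404 TPM in replicate 1 and at 23.1 and 38.9 TPM in replicate 2, and Slc12a1, a transporter of the thick limb where Ptger3 is known to be made, was at 7.40 and 51.3 TPM in replicate 1 and at 199.99 and 136 TPM in replicate 2. Npy1r, a receptor of neuropeptide Y, was at 25.6 TPM in library 1a and below 1.2 TPM elsewhere. The part of tubule RNA in these receptors was not tested.

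In TPM, the γ subunits Gng5 and Gng11 were more abundant than any α subunit examined. Estimated counts, which are not divided by length, were not compared for them. Gng5 was at 933 ± 73.0 TPM and Gng11 at 749 ± 442 TPM (SD, n = 2), both above Gnas in every library, and Gnb2 was at 79.4 ± 50.1 TPM. In all, 6 of 18 other G protein genes reached 1 TPM in all 4 libraries. Of 8 other phosphodiesterases of cyclic AMP none did. Pde10a was the highest of them, at 56.5 and 61.4 TPM in replicate 1 and at 5.39 and 0.0611 TPM in replicate 2, and Pde11a was at 81.0 TPM in library 2b and below 0.7 TPM elsewhere. Pde8b was at 23.2 TPM in library 1a and below 2.4 TPM elsewhere.

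Inhibitors of PKA and other effectors were present unevenly. Pkig, an inhibitor of the catalytic subunits, was at 56.3 and 47.7 TPM in replicate 1 and at 112 and 0.0673 TPM in replicate 2. Pkia of the same family was at 11.8 and 64.8 TPM in replicate 1 and at 8.21 and 0.276 TPM in replicate 2. Rapgef3, which encodes the exchange factor Epac1, was at 39.9 and 0.768 TPM in replicate 1 and at 3.17 and 9.42 TPM in replicate 2. Of 16 genes of this list, Pkib and Rapgef4 reached 1 TPM in all 4 libraries. Of 16 other anchoring proteins 4 did, Ezr, Akap9, Akap8l and Pcnt, with levels of 25.7 ± 8.73 TPM for Ezr and 18.3 ± 21.8 TPM for Akap9 (SD, n = 2). Akap9 was at 61.7 TPM in library 2b and Akap8 at 28.7 TPM in library 1b. Of 7 receptor kinases and arrestins Grk4 alone did, at 11.03 ± 4.03 TPM, ahead of Grk5 at 4.94 ± 5.83 TPM and Grk3 at 4.90 ± 0.0548 TPM (SD, n = 2). The small SD of Grk3 comes from averaging, since its libraries were at 0.521 and 9.21 TPM in replicate 1 and at 5.80 and 4.09 TPM in replicate 2.

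Of 12 other factors related to CREB and kinases of CRTC proteins, 5 reached 1 TPM in all 4 libraries. Atf4, a factor of the stress response, was at 96.0 ± 79.8 TPM, Crebzf at 18.1 ± 6.77 TPM and Sik2, which holds CRTC proteins in the cytoplasm, at 16.1 ± 7.95 TPM (SD, n = 2). Of 18 genes known as CREB targets, 9 reached 1 TPM in all 4 libraries, led by Fos at 755 ± 340 TPM, Ier2 at 233 ± 275 TPM and Dusp1 at 176 ± 104 TPM (SD, n = 2). All 3 are also known to respond to the dissociation of tissue, and these cells had been released by collagenase and trypsin. The part of the dissociation in their levels was not tested.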

How the data were processed

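RNA-seq of sorted recruited renin cells gave 4 libraries, from 2 biological replicates with 2 technical replicates each. The authors trimmed reads with Trimmomatic 0.36, quantified reads against GRCm38 with Salmon 0.7.2 and used Tximport 1.2.0 (lengthScaledTPM) to obtain values per gene symbol. No Ensembl release was found in the labels or methods. The authors deposited TPM, estimated counts made from TPM and gene length, which are not whole reads, and effective lengths as other values in bases. The deposited mean TPM is that of libraries 1b, 2a and 2b (0 rows differed by more than 1e-06 TPM). No molecular identifiers are described for the amplified cDNA, so totals do not count molecules and no counting interval is given.

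Levels, shares of a step and counts were computed with Python 3.11.15, pandas 2.3.3 and numpy 2.4.6, and drawn with matplotlib 3.10.9. The calculations were tested on simulated data. Gene coordinates were read from GENCODE M21 (GRCm38), which held all 44 symbols, and promoter letters from RefSeq on GRCm38.p6. No test was run, since there is 1 condition. The members and lists were chosen with earlier results of these data known. The 2 highest members of each step and those that reached 1 TPM in all 4 libraries are given by library, and the 3 highest genes of each other pathway list are named. Other members named with values, as well as Synpo, Cd74, Pecam1, Tek, Emcn, Egfl7, Cdh5, Kdr, Aqp2, Flt1, Tie1, Slc12a1, Atp6v1b1, Calb1, Scnn1g, Kap, Slc5a2, Slc34a1, Slc22a6, Miox and Lrp2, were named after their values were seen. Alternatives left out each library and each replicate, used the deposited mean, CPM from estimated counts, other minimum levels and other averages, and, added after seeing the data, TPM multiplied by effective length and rescaled to the same total. Protein sequences, which the rule for sequences had named, are not shown, since no protein table was used here.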

Additional observations from a re-analysis of the deposited data

Results flagged for a closer look

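Of 44 member levels and 11 leading shares, 15 had a library far from the other 3, by a rule that flags about 1 in 20 groups of independent, normally distributed values. All 15 were member levels (34.1% of 44). That rate is no measure of chance for these values: of 12301 symbols at 1 TPM or more in any library, 37.7% had such a library, and technical replicates are not independent.

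Library 1a stood above the others for Ramp2 at 8.07 TPM, Gnai3 at 27.6 TPM, Adcy6 at 11.7 TPM, Prkar2b at 5.45 TPM, Pde1c at 42.2 TPM, Pde4b at 117 TPM and Ep300 at 30.6 TPM, and, below 0.1 TPM, for Adcy2 at 0.0411 TPM and Adcy8 at 0.0392 TPM. Library 1b stood above the others for Adora1 at 17.7 TPM, Ramp3 at 45.9 TPM and Adcy4 at 23.2 TPM. Library 2a did so for Adcy1 at 0.316 TPM and library 2b for Crtc2 at 22.1 TPM. Adrb1 was low in library 2b, at 0.0131 TPM against 10.2 TPM in the next lowest library.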

How the results depend on the processing

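Of 138 alternatives to 14 main quantities, 99 moved the value by less than the SD over replicates, or a count by less than 1.5 times, and 39 moved it further. A leading share is the mean of 2 replicates, so leaving out a whole replicate always moves it by less than the SD. Those alternatives are among the 99 and say nothing about how stable the shares are. Leaving out a library or a replicate gave 16 to 25 members at 1 TPM or more in every remaining library, medians of 2.61 to 9.30 TPM, and leading shares of 53.1% to 80.6% for Pth1r, 65.5% to 96.7% for Ramp1, 67.5% to 88.2% for Gnas, 11.2% to 43.4% for Adcy9, 53.8% to 87.0% for Prkacb, 88.1% to 94.4% for Prkar1a, 16.5% to 43.6% for Pde4b, 49.7% to 73.5% for Crem, 51.8% to 81.5% for Crtc2, 70.3% to 94.6% for Crebbp and 41.9% to 78.9% for Akap13. At 5 TPM in place of 1 TPM, 7 members were in every library, and 25 members were at 1 TPM or more in at least 3 libraries. Of the 20 members whose replicates did not overlap, 7 had means at least 4-fold apart. In the authors' deposited mean the leading share was 44.4% for Adcy9, 72.0% for Crem, 89.1% for Crtc2 and 93.4% for Crebbp, and 15 members lay over 1.5 times below their level here. With the share taken from summed levels it was 75.9% for Crem and 72.7% for Crebbp. In CPM from estimated counts, which are not divided by length, the median was 23.2 and the leading share 54.7% for Pth1r, 45.1% for Crem and 48.4% for Crtc2. With TPM multiplied by effective length, an alternative chosen after seeing the data, they were 21.6, 55.1%, 41.4% and 50.3%, and 49.0% for Akap13. The leading member of a step was the same in all 9 alternatives for 7 of 11 steps. It was Adcy3 in 2 alternatives, Pde4c in 1, Crtc3 in 4 and Akap12 in 2. The causes were not tested. No paired analysis was possible because there is 1 group. With 2 replicates of amplified cDNA, the SD rests on 1 difference, and a value near 0 in a library does not show that the gene was silent.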
